A study of Mus musculus with 9 samples.

Results

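B cell identity and plasma cell fate are set by a small network of transcription factors, and 10 genes of that network were followed here in splenic B cells of 2 mouse models of leukemia and of wildtype mice. The genes were Pax5, Ebf1, Spib, Spi1, Ikzf1, Irf4, Irf8, Bach2, Bcl6 and Prdm1, taken by gene name from a table of 22174 genes. Of the 22174 genes, 11165 had enough reads to be tested, and all 10 transcription factor genes were among them. RNA-sequencing covered 9 C57/BL6NTac mice, 3 per group, with 1 library per mouse. Eµ-MTCP1 mice (Z2551, Z2606 and Z2641) carried the human MTCP1 cDNA and Eµ-TCL1 mice (B4376, B4437 and C1594) the human TCL1 cDNA, each driven by a VH promoter and the IgH-Eµ enhancer, which are active in immature and mature B cells. The Eµ-MTCP1 mice descended from 1 founder line (Z36), in which the transgene had landed in an intron of Fam168a, and the wildtype mice (Z2754, Z2755 and Z2785) were littermates without the MTCP1 transgene. Both transgenic groups were mice with overt disease, age-matched between the groups, although no age is given for any of the 9 animals, and B cells were taken from spleen by negative selection.

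Pax5 and Ebf1 are required to enter and keep the B cell fate. Spi1, which encodes PU.1, and Spib are related ETS factors that share many binding sites in B cells, and Ikzf1 encodes Ikaros, a zinc finger factor of all lymphoid lineages. Irf4 and Irf8 bind DNA together with PU.1 or SPI-B, and the balance between both IRF proteins shifts as B cells are activated. Bcl6, the repressor of the germinal center program, and Bach2 hold back Prdm1, which encodes Blimp-1, the repressor that switches off the B cell program in plasma cells.

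In both leukemias Bcl6 and Bach2 fell and Prdm1 rose relative to wildtype B cells, and Ebf1 fell in Eµ-TCL1. The genes of the ETS pair (Spi1 and Spib), Ikzf1 and Irf4 did not pass the test in either leukemia. Irf8 and Pax5 lay lower in every leukemia than in every wildtype library, as did Ebf1 in Eµ-MTCP1, but these changes missed the threshold. The share of all genes that separate in this way was not counted. Between both leukemias no factor passed the test. The p-values come from edgeR's quasi-likelihood test with Benjamini-Hochberg adjustment over all 11165 genes, fitted to reads that Salmon had assigned to coding sequence. Levels are given in CPM, those reads relative to the scaled size of the library, and they compare 1 gene between mice, not different genes.

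The promoters of the genes on which the results turn are shown first, since Bcl6, Bach2 and Prdm1 moved in opposite directions and Irf4 and Irf8 are the pair of related factors. RefSeq promoter windows on GRCm38.p6 were matched for 9 of the 10 genes, 13 windows in all, from 250 bases before to 50 bases after an annotated start; Spi1 has no entry. Only the 250 bases before the start are printed, on the strand of the gene, and 1 window per gene. Capitals mark the ETS core GGAA (or TTCC, the same letters on the other strand), the E-box CACGTG, and TATAAA.
Bcl6, chr16:23988853-23989102, minus strand: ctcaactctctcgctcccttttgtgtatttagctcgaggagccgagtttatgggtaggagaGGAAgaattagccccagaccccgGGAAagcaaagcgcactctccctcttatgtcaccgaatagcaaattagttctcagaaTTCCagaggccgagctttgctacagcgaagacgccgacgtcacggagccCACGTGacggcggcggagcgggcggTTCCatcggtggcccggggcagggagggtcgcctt
Bach2, chr4:32417185-32417434, plus strand: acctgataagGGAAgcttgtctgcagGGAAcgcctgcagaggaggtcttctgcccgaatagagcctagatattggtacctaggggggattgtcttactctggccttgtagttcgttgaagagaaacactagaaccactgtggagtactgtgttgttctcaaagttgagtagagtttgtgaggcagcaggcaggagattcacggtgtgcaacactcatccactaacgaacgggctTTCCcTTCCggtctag
Prdm1, chr10:44458749-44458998, minus strand: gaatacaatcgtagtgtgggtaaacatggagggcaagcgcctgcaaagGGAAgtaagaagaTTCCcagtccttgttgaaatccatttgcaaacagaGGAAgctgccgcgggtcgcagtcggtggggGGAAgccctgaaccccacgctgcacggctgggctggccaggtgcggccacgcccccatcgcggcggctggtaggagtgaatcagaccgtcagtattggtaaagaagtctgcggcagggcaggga
Irf4, chr13:30748983-30749232, plus strand: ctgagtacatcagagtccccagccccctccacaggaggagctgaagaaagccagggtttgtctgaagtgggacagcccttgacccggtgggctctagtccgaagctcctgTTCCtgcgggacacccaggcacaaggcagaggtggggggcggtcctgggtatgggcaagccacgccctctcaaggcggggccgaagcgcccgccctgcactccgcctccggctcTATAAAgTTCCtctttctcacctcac
Irf8, chr8:120736108-120736357, plus strand: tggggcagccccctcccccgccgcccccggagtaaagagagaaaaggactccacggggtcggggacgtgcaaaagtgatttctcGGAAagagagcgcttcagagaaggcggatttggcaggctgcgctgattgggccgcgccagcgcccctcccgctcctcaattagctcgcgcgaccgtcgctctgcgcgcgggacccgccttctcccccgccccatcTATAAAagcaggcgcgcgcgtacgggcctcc

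On GRCm38 the annotated genes span chr16:23965052-23988852 (Bcl6, minus strand), chr4:32238804-32586108 (Bach2, plus), chr10:44437177-44528501 (Prdm1, minus), chr11:44617317-45008091 (Ebf1, plus), chr13:30749226-30766976 (Irf4, plus) and chr8:120736358-120756694 (Irf8, plus). The Bcl6, Prdm1, Bach2 and Irf8 windows hold no base of an exon of their gene in GENCODE M21, and the last 7 bases of the Irf4 window do. The Bach2 and Prdm1 windows lie inside the span of the annotated gene, downstream of its outermost start, whereas the printed Bcl6 and Irf8 windows end at that start. Bcl6 and Irf8 each have a second window, inside the gene, which is not printed. The first Ebf1 window lies wholly in the first exon of Ebf1 and is not printed. The ETS core was found in 12 of the 13 windows of these genes, but it was also found in 96.0% of all 32851 promoter windows. CACGTG occurred in 1 of the 13 windows, that of Bcl6, beginning 60 bases before the start, against 7.15% of all windows. TATAAA occurred in the windows of Irf4 and Irf8, beginning 26 and 31 bases before the start, against 13.6% of all windows. Both strands were searched. A match of letters is not a binding site, and a window without one says nothing about the factor.

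Library depth was 6464089 to 8053017 reads on coding sequence and 11438681 to 14070588 reads on whole transcripts. The human transgenes followed the labels: the authors' normalized log2-scale value of MTCP1 was 11.1 to 12.3 in the 3 Eµ-MTCP1 libraries and at most 6.19 in the other 6, and that of TCL1A was 14.9 to 15.6 in Eµ-TCL1 and at most 6.96 elsewhere, with a lowest possible value of 5.85. The B cell genes Cd79a and Cd79b, the signaling chains of the B cell receptor, were expressed in every library, at 2429 to 4084 CPM and 1603 to 2900 CPM, as were Ms4a1, which encodes CD20 (367 to 782 CPM), Cd22 (567 to 1310 CPM) and Ptprc, which encodes CD45 (365 to 1134 CPM). By edgeR the lowest adjusted p of these 5 genes in any comparison was 0.052 (Cd22 in Eµ-TCL1 against wildtype), and DESeq2 called Cd22 and Ptprc lower in that comparison. The 12 myeloid markers summed to 891 to 2612 CPM in Eµ-MTCP1, 381 to 1832 CPM in Eµ-TCL1 and 1040 to 4805 CPM in wildtype. Wildtype mouse Z2755 and Eµ-MTCP1 mouse Z2641 stood apart in the granulocyte genes Mpo, Elane, S100a8 and S100a9, which summed to 3670 and 2014 CPM in them and to between 24.1 and 293 CPM in the other 7 libraries. The library of Z2755 was also the only one on a second sequencing lane, so lane and mouse cannot be told apart. The T cell markers summed to 35.8 to 146 CPM, the NK cell markers to 3.50 to 127 CPM, the dendritic cell markers to 4.46 to 54.4 CPM and the erythroid markers to 22.4 to 318 CPM, the last highest in Z2641. Cd4 and Cd8a stayed at or under 2.49 CPM in every library, and the dendritic cell genes Xcr1 and Clec9a at or under 0.906 CPM. The 12 myeloid markers had a median log2 fold change of -0.81 in Eµ-MTCP1 and -0.46 in Eµ-TCL1 against wildtype. By edgeR 2 and 5 of them had an unadjusted p under 0.05. After adjustment 1 of the 12 was called in each leukemia, where 9.48% and 9.20% of all tested genes were called. This was Cd68, a lysosomal protein of macrophages, which rose against the median, from 36.1 to 68.3 CPM in wildtype to between 154 and 323 CPM. How far other cells contribute to the values below was not tested.

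**Figure D1:**
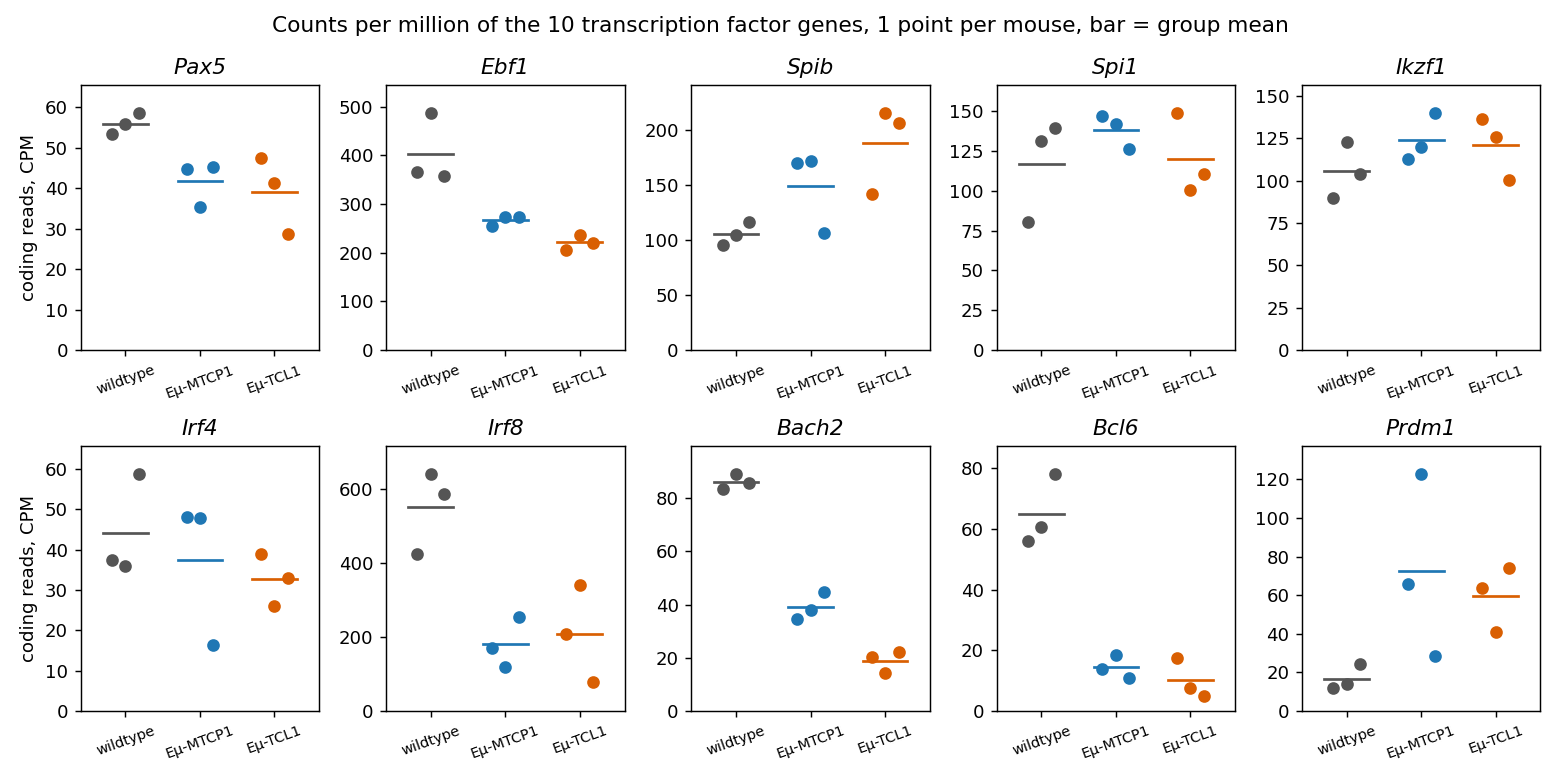
CPM (vertical axis, from 0) of each of the 10 genes, with 1 point per mouse and a bar at the mean of the 3 mice of each group. Bcl6 and Bach2 lie lower in all 6 leukemias than in all 3 wildtype libraries, Prdm1 lies higher in all 6, and Irf4, Spi1 and Ikzf1 overlap between the groups.

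The first comparison asked how B cells of Eµ-MTCP1 mice differ from wildtype B cells. Of the 10 factors, 3 were called: Prdm1 rose, and Bcl6 and Bach2 fell, against 9.48% of all tested genes called in either direction (5.49% higher and 3.99% lower). The second comparison asked the same of Eµ-TCL1 mice, and 4 of the 10 were called, Prdm1 upward and Bcl6, Bach2 and Ebf1 downward, against 9.20% of all genes (5.07% higher and 4.13% lower). The median log2 fold change of the 10 genes was -0.33 in Eµ-MTCP1 and -0.47 in Eµ-TCL1, and that of all tested genes was -0.02 and -0.01. Both comparisons use the same 3 wildtype libraries, so they are not independent of each other. Without mice Z2641 and Z2755, an alternative chosen after the data were seen, 2 factors were called in each comparison: Bach2 and Prdm1 in Eµ-MTCP1, and Bach2 and Bcl6 in Eµ-TCL1.

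Bcl6 had 56.1, 60.7 and 78.1 CPM in the wildtype mice, 10.7, 13.9 and 18.5 CPM in Eµ-MTCP1 and 4.90, 7.74 and 17.6 CPM in Eµ-TCL1. The highest leukemia library, that of Eµ-MTCP1 mouse Z2606, lay far below the lowest wildtype library. Bcl6 fell by 2.17 on the log2 scale in Eµ-MTCP1 (SE 0.42, adjusted p = 0.00939, edgeR) and by 2.69 in Eµ-TCL1 (SE 0.43, adjusted p = 0.0034). Without B4376, the Eµ-TCL1 mouse with the most Bcl6, the Eµ-TCL1 change was -3.35 (adjusted p = 0.00109). In a fit without mice Z2641 and Z2755 the Eµ-MTCP1 change was -2.08 with an adjusted p of 0.0704, so this call was lost. In bulk RNA, fewer cells that express a gene and less RNA per cell cannot be told apart, and this holds for each gene below.

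Bach2 encodes a repressor that keeps B cells from becoming plasma cells. It stood at 83.4, 85.7 and 89.1 CPM in wildtype B cells, at 34.5, 38.1 and 44.9 CPM in Eµ-MTCP1 and at 14.1, 20.3 and 22.1 CPM in Eµ-TCL1, so that the 3 groups were fully separated. It fell in both, with a log2 fold change of -1.14 in Eµ-MTCP1 (SE 0.21, adjusted p = 0.00703) and -2.19 in Eµ-TCL1 (SE 0.21, adjusted p = 0.000251), and both calls held under all 21 alternatives.

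Prdm1 rose in both leukemias. Its levels were 12.1, 13.8 and 24.5 CPM in wildtype, 28.6, 65.8 and 123 CPM in Eµ-MTCP1 and 41.1, 63.5 and 74.1 CPM in Eµ-TCL1. The groups did not overlap, although Eµ-MTCP1 mouse Z2641 came close to the highest wildtype mouse. The log2 fold change was 2.11 in Eµ-MTCP1 (SE 0.49, adjusted p = 0.0227) and 1.83 in Eµ-TCL1 (SE 0.48, adjusted p = 0.0401). Neither call was robust to single libraries: the Eµ-MTCP1 call was lost without Eµ-MTCP1 mouse Z2551 (adjusted p = 0.0544) or Z2606 (0.0592, with a log2 fold change of 1.46), and without wildtype mouse Z2755 (0.0939) or Z2754 (0.112). The Eµ-TCL1 call was lost without Z2755 (0.142), Z2754 (0.153), C1594 (0.113), B4376 (0.0868) or the Eµ-MTCP1 mouse Z2551 (0.0602), which enters through the shared estimate of spread, and with length offsets (0.0515).

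Ebf1 had 358, 366 and 486 CPM in wildtype, 255, 273 and 274 CPM in Eµ-MTCP1, with 206, 221 and 237 CPM in Eµ-TCL1. Every leukemia library lay below every wildtype library. Ebf1 fell by 0.87 on the log2 scale in Eµ-TCL1 (SE 0.18, adjusted p = 0.0139), and that call was lost without wildtype mouse Z2755 (adjusted p = 0.0539), which had the highest Ebf1 level, and without B4376 (0.0536) or C1594 (0.0562). In Eµ-MTCP1 the log2 fold change was -0.59 (SE 0.18, adjusted p = 0.0666), and it passed on reads assigned to whole transcripts (-0.70, adjusted p = 0.0307). On coding reads it passed by DESeq2 (-0.60, adjusted p = 0.0078) and by edgeR with library size only (-0.84, adjusted p = 0.0286). Pax5, the partner of Ebf1 in B cell commitment, was 53.4, 55.9 and 58.5 CPM in wildtype, 35.4, 44.6 and 45.3 CPM in Eµ-MTCP1 and 28.6, 41.3 and 47.4 CPM in Eµ-TCL1. Its groups did not overlap either, but its log2 fold changes of -0.42 (95% interval -0.90 to 0.05, adjusted p = 0.25) and -0.52 (-0.99 to -0.04, adjusted p = 0.165) did not pass. On whole-transcript reads the Pax5 changes were smaller, -0.26 (adjusted p = 0.428) and -0.23 (adjusted p = 0.498). Only 10.1 to 16.2% of the whole-transcript reads of Pax5 fell on coding sequence.

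**Figure D2:**
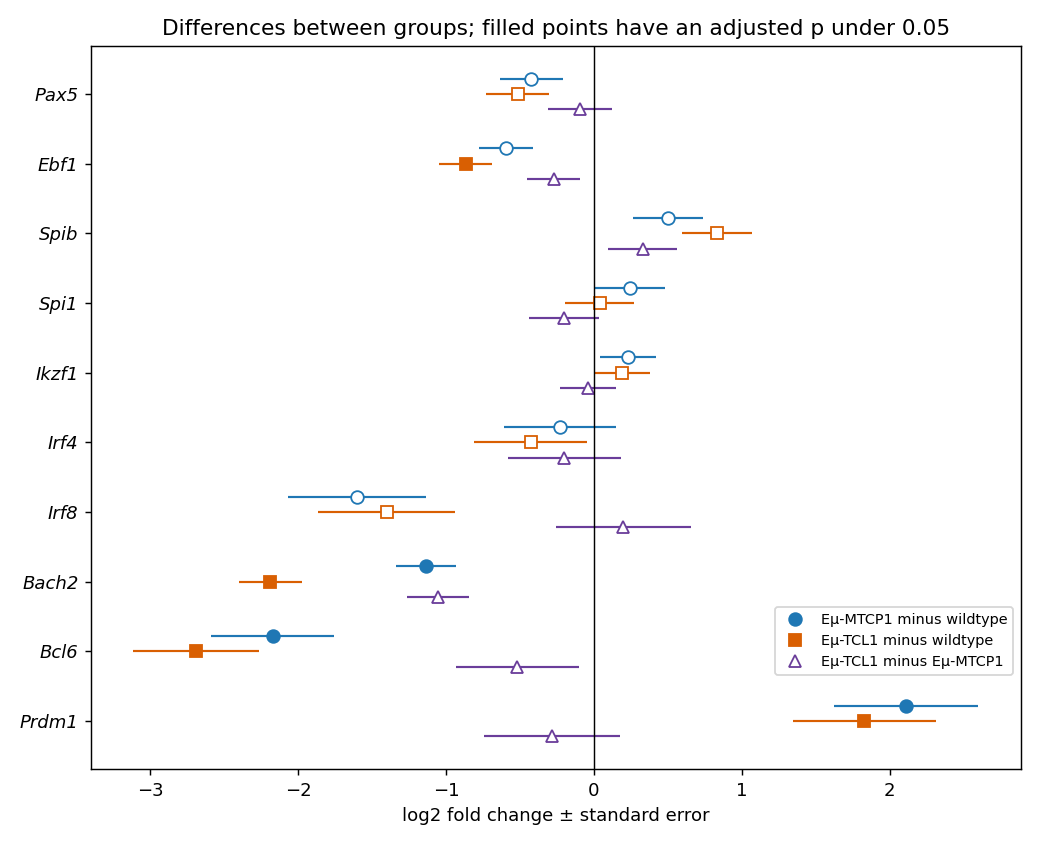
Log2 fold change (horizontal axis) with its standard error for each of the 10 genes in the 3 comparisons; filled points passed an adjusted p of 0.05. Bcl6, Bach2 and Prdm1 carry filled points for both leukemias, Ebf1 for Eµ-TCL1, and no gene for Eµ-TCL1 minus Eµ-MTCP1.

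Irf8 varied widely among the leukemias. Its levels were 423, 584 and 639 CPM in wildtype, 119, 171 and 254 CPM in Eµ-MTCP1 and 77.2, 207 and 339 CPM in Eµ-TCL1. The groups did not overlap, and the log2 fold changes were -1.60 in Eµ-MTCP1 (SE 0.47, adjusted p = 0.0581) and -1.40 in Eµ-TCL1 (SE 0.46, adjusted p = 0.0891). DESeq2 called both (adjusted p = 0.0037 and 0.0135). Irf8 is also expressed in myeloid cells, and the wildtype mouse with the most Irf8, Z2755, was the one with the most myeloid marker reads. Without Z2641 and Z2755 the log2 fold changes were -1.84 (adjusted p = 0.127) and -1.30 (adjusted p = 0.178), and the part of myeloid cells was not tested. Both changes passed without Eµ-TCL1 mouse B4437 (adjusted p = 0.0356 and 0.0342), and that of Eµ-MTCP1 also without C1594 (0.0134). Dendritic cells express Irf8 as well, and the 4 dendritic cell markers tested had a median log2 fold change of -1.84 in Eµ-MTCP1 (edgeR called 0, 2 had an unadjusted p under 0.05 and DESeq2 called 1) and of -0.27 in Eµ-TCL1, where 1 of them, Flt3, fell. The whole list of 7 dendritic cell markers summed to 22.4 to 50.3 CPM in wildtype, 4.46 to 54.4 CPM in Eµ-MTCP1 and 18.8 to 41.2 CPM in Eµ-TCL1. The part of dendritic cells in the Irf8 result was not tested.

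Irf4 did not pass the test in coding reads, with 35.9, 37.4 and 58.8 CPM in wildtype, 16.4, 47.9 and 48.2 CPM in Eµ-MTCP1 and 26.0, 33.0 and 39.0 CPM in Eµ-TCL1. The groups overlapped, and the log2 fold changes were -0.23 (95% interval -1.07 to 0.61, adjusted p = 0.743) and -0.43 (-1.27 to 0.41, adjusted p = 0.529). Irf4 levels per length did not overlap between wildtype and the leukemias. On coding sequence they were 21.7, 21.8 and 24.9 TPM (reads per transcript length, scaled to the same total in each library) in wildtype and 9.58 to 20.03 TPM in the leukemias. On whole transcripts Irf4 stood at 42.5, 46.3 and 47.8 TPM in wildtype, 12.03, 24.3 and 30.2 TPM in Eµ-MTCP1 and 20.9, 23.7 and 27.0 TPM in Eµ-TCL1. The log2 fold changes on whole-transcript reads were -0.71 (adjusted p = 0.187) and -0.82 (adjusted p = 0.131), so neither passed. Only 8.49 to 20.2% of the whole-transcript reads of Irf4 fell on coding sequence, against 57.5 to 76.6% for Ebf1, and wildtype mouse Z2754 had the lowest share for both genes.

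The ETS pair and Ikaros did not pass the test. Spib had 95.1, 105 and 117 CPM in wildtype, 106, 170.0 and 172 CPM in Eµ-MTCP1 and 142, 206 and 215 CPM in Eµ-TCL1, so that all Eµ-TCL1 libraries lay above wildtype. Its log2 fold change in Eµ-TCL1 was 0.83 (SE 0.24, adjusted p = 0.0539) on coding reads and 0.83 (adjusted p = 0.0256) on whole transcripts, and in Eµ-MTCP1 0.50 (SE 0.24, adjusted p = 0.216). The Eµ-TCL1 change passed without Z2641 (adjusted p = 0.0265) or B4376 (0.0350). With all libraries it passed by DESeq2 on coding reads (0.82, adjusted p = 0.0132) and by edgeR with length offsets (adjusted p = 0.0417). In a fit of these 2 groups only it passed too (adjusted p = 0.0406). Spi1 ranged from 80.3 to 139 CPM in wildtype, from 126 to 147 CPM in Eµ-MTCP1 and from 101 to 149 CPM in Eµ-TCL1, with log2 fold changes of 0.24 (95% interval -0.28 to 0.77) and 0.04 (-0.49 to 0.56). Myeloid cells also express Spi1, and the part of myeloid cells in its values was not tested. Ikzf1 ranged from 89.9 to 123 CPM in wildtype, from 113 to 139.6 CPM in Eµ-MTCP1 and from 101 to 136 CPM in Eµ-TCL1, with log2 fold changes of 0.23 (-0.19 to 0.65) and 0.19 (-0.23 to 0.61). The sign turned under another scaling for Ikzf1 in Eµ-MTCP1 (-0.01) and Spi1 in Eµ-TCL1 (-0.10), and on whole transcripts for Ikzf1 in Eµ-TCL1 (-0.03).

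The third comparison set both leukemias against each other. By edgeR 0 of the 10 factors were called, against 0.0448% of all tested genes (0.0269% higher and 0.0179% lower), 1 of the 10 had an unadjusted p under 0.05 and DESeq2 called 1, in both cases Bach2. Bach2 was lower in all 3 Eµ-TCL1 mice than in all 3 Eµ-MTCP1 mice, with a log2 difference of -1.05 (SE 0.21, 95% interval -1.52 to -0.59). Its adjusted p was 0.225 by edgeR and 0.00468 by DESeq2, and on whole-transcript reads the difference was -0.88 (adjusted p = 0.536). For the other 9 factors the differences lay between -0.52 (Bcl6) and 0.33 (Spib). The 95% interval of the difference was -1.44 to 0.40 for Bcl6, -1.31 to 0.74 for Prdm1, -0.81 to 1.21 for Irf8, -1.04 to 0.64 for Irf4, -0.67 to 0.13 for Ebf1 and -0.19 to 0.85 for Spib.

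Levels per length give the order of the factors within a group. In wildtype B cells Irf8 stood highest at 356 ± 92.2 TPM of coding sequence (SD, n = 3), and its 3 libraries did not overlap with those of the next gene. Ebf1 (134 ± 40.6), Spi1 (129 ± 36.7), Spib (102 ± 9.21) and Ikzf1 (96.4 ± 28.1 TPM) followed, with overlapping neighbors. Pax5 (39.6 ± 5.67) and Irf4 (22.8 ± 1.81 TPM) came next, then Bach2 (18.5 ± 3.05) and Bcl6 (16.4 ± 1.16 TPM), whose libraries overlapped, and Prdm1 was lowest at 3.31 ± 0.877 TPM. In both leukemias the mean level of Prdm1 stood above those of Bach2 and Bcl6. In Eµ-MTCP1 the order at the bottom was Prdm1 (11.4 ± 7.50), Bach2 (6.46 ± 0.997) and Bcl6 (2.82 ± 0.717 TPM), with Prdm1 and Bach2 overlapping. In Eµ-TCL1 it was Prdm1 (9.85 ± 2.70), Bach2 (3.35 ± 0.674) and Bcl6 (2.14 ± 1.41 TPM), with Bach2 and Bcl6 overlapping. On whole transcripts Spib was the highest of the 10 in both leukemias, as it was on coding sequence in Eµ-TCL1, at 162 ± 20.04 TPM in Eµ-MTCP1 and 225 ± 33.1 TPM in Eµ-TCL1.

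Ratios of 2 factors within a library were taken as log2 of coding TPM plus 0.5, so library scaling enters only through the added 0.5. Between the 6 leukemias and the 3 wildtype mice, 5 ratios were compared by an exact two-sided permutation test over all 84 choices. The smallest possible p of this test is 0.0119. The log2 ratio of Bach2 to Prdm1 was 2.68, 2.58 and 1.74 in wildtype and between -1.58 and 0.69 in the leukemias, a difference of -3.32 (exact permutation p = 0.0119, adjusted over 5 ratios 0.0198). The log2 ratio of Bcl6 to Prdm1 was 2.37, 2.29 and 1.86 in wildtype and between -3.07 and -0.92 in the leukemias, a difference of -4.04 (exact permutation p = 0.0119, adjusted 0.0198). With 0.1 TPM added instead of 0.5, the Bcl6 to Prdm1 difference was -4.35. Repressor transcripts therefore exceeded those of Prdm1 in every wildtype library, and Bcl6 fell below Prdm1 in 6 of 6 leukemias and Bach2 in 5 of 6, with Z2641 as the exception. The log2 ratio of Pax5 to Prdm1 was 2.89 to 3.68 in wildtype and -0.08 to 2.37 in the leukemias, a difference of -2.22 (exact permutation p = 0.0119, adjusted 0.0198). This call was lost without Z2755 or Z2754 (exact permutation p = 0.0714) and without Z2785, Z2551 or B4376 (0.0357), and those of Bach2 and Bcl6 without any 1 wildtype mouse (0.0357, the smallest p then possible). These 3 ratios share Prdm1 and are not independent of each other. Bach2, Bcl6, Pax5 and Prdm1 each separated the groups fully alone, so these ratios had to separate them too. Their p-values restate the single-gene differences and give no added support. The log2 ratio of Irf4 to Irf8 differed by 1.33 (exact permutation p = 0.107, adjusted 0.134) and that of Spib to Spi1 by 0.50 (exact permutation p = 0.155, adjusted 0.155), both with overlapping groups. For Irf4 to Irf8 the difference was 0.87 on whole transcripts (exact permutation p = 0.274) and 0.78 with the gene count table (exact permutation p = 0.310).

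**Figure D3:**
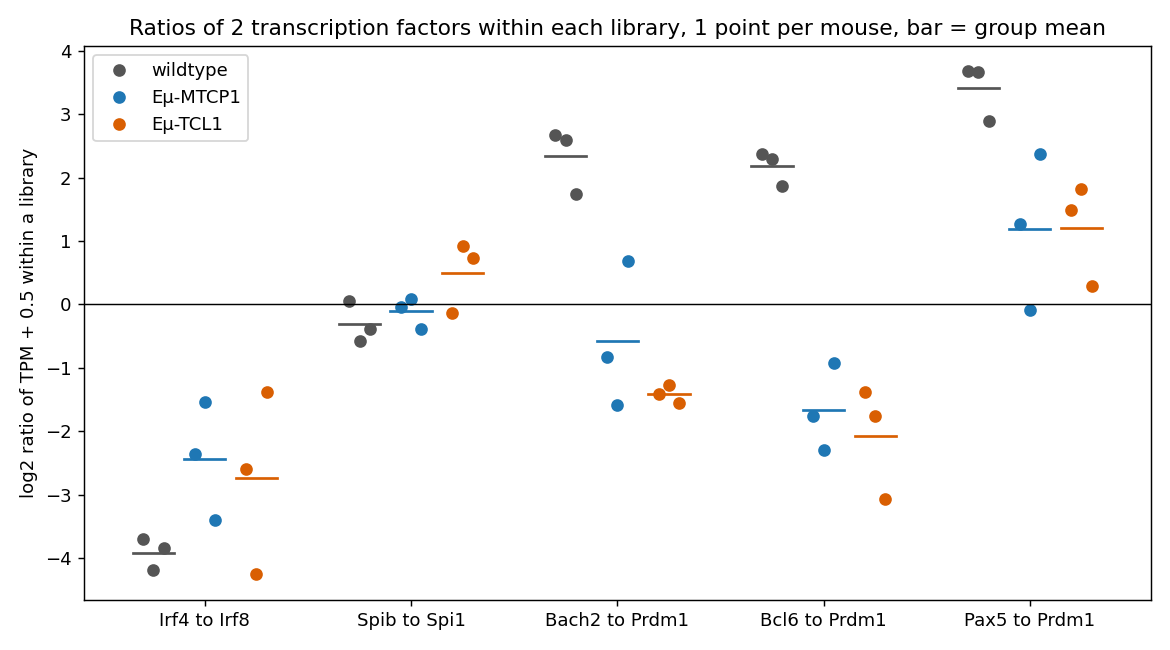
Log2 ratio of the TPM values (plus 0.5) of 2 factors within each library (vertical axis), with 1 point per mouse and a bar at the group mean. The ratios of Bach2, Bcl6 and Pax5 to Prdm1 lie lower in all 6 leukemias than in the 3 wildtype mice, and the groups overlap for Irf4 to Irf8 and Spib to Spi1.

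Annotated transcripts of a gene were compared by their share of its TPM. Bcl6-201 made up 93.6 to 100% of the whole-transcript TPM of Bcl6 in every library. The coding sequences of Ebf1-201, Ebf1-202 and Ebf1-203 are of nearly the same length (1776, 1779 and 1755 bases), and Ebf1-201 took 46.0 ± 1.81% of the Ebf1 TPM in wildtype, 51.5 ± 5.50% in Eµ-MTCP1 and 44.7 ± 3.89% in Eµ-TCL1 (SD, n = 3 each). Ebf1-202 took 29.3 ± 2.47% in Eµ-MTCP1, below its 3 wildtype libraries (36.5 ± 0.484%), and 36.1 ± 5.20% in Eµ-TCL1; these shares were not tested. Irf4-201 and Irf4-202 have coding sequences of 1353 and 1350 bases, and the share of Irf4-201 ranged from 31.0 to 73.8% between mice without separating the groups. Such splits are estimates by Salmon from reads that the transcripts largely share. The isoforms of Pax5 moved in and out of detection between libraries, at 204 to 515 coding reads per library, and are not compared.

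The IRF and Ikaros families, with Irf4, Irf8 and Ikzf1 among them, gave no calls by edgeR. Of the 9 IRF genes, all tested, edgeR called 0 in each comparison (unadjusted p under 0.05 for 4 in Eµ-MTCP1 and 1 in Eµ-TCL1 against wildtype, and 2 and 1 called by DESeq2), where 9.48% and 9.20% of all tested genes were called. Of the 5 Ikaros family genes 3 were tested and 0 called (unadjusted p under 0.05 for 1 in Eµ-MTCP1 and 0 in Eµ-TCL1, and 0 and 0 by DESeq2). Among 18 partners and corepressors, Tle3, a corepressor of the Groucho family, rose in both leukemias (log2 fold change 0.94 and 1.31, adjusted p = 0.0157 and 0.0028), Tle1 fell in Eµ-TCL1 (6.65 ± 2.12 CPM in wildtype and 0.657 ± 0.326 CPM in Eµ-TCL1, adjusted p = 0.0325), and the others did not pass.

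Among 32 other B lineage transcription factors, 9 were called in Eµ-MTCP1 (7 higher and 2 lower) and 10 in Eµ-TCL1 (7 higher and 3 lower), against 9.48% and 9.20% of all tested genes. The median of the 32 was 0.15 and -0.03. Zbtb32, a zinc finger repressor, rose the most, from 12.3, 12.4 and 20.2 CPM in wildtype to 311, 472 and 476 CPM in Eµ-MTCP1 and 317, 453 and 611 CPM in Eµ-TCL1 (log2 fold change 4.81 and 4.94, SE 0.35 for both, adjusted p = 0.000117 and 8.61e-05). Arid3a, a factor known from B-1 cells, rose from 27.3, 32.6 and 46.7 CPM to between 195 and 256 CPM in Eµ-MTCP1 and between 227 and 381 CPM in Eµ-TCL1 (2.65 and 3.09). The paralogs Bhlhe41 and Bhlhe40 moved in opposite directions. Bhlhe41, which B-1a cells need, rose from 2.57, 3.72 and 7.49 CPM to between 24.6 and 53.2 CPM in Eµ-MTCP1 (2.99, adjusted p = 0.0022) and between 14.5 and 20.6 CPM in Eµ-TCL1 (1.87, adjusted p = 0.0208). Bhlhe40 fell from 222, 223 and 265 CPM to between 17.4 and 32.1 CPM in Eµ-MTCP1 and between 21.01 and 50.8 CPM in Eµ-TCL1 (-3.40 and -2.77). Sox4, a factor of early B cell development, fell in Eµ-TCL1 from 5.46 ± 3.15 CPM to 0.215 ± 0.192 CPM, which is at or under the level of 3 reads (0.326 to 0.495 CPM). In Eµ-MTCP1 Sox4 was also low, at 0.606 ± 0.418 CPM.

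**Figure D4:**
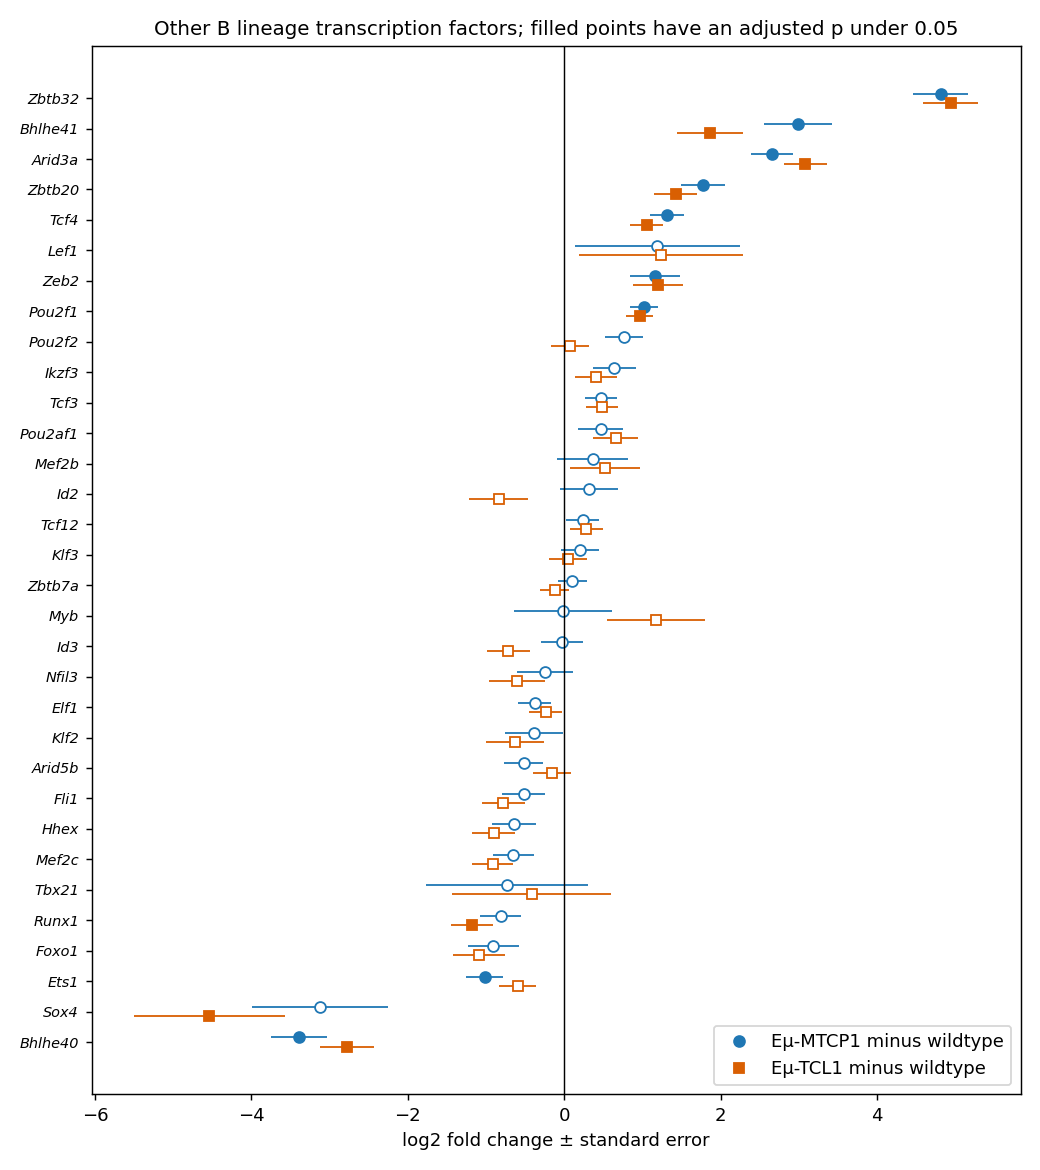
Log2 fold change (horizontal axis) with its standard error of 32 other B lineage transcription factors in Eµ-MTCP1 and Eµ-TCL1 against wildtype, ordered by the Eµ-MTCP1 value; filled points passed an adjusted p of 0.05. Zbtb32, Bhlhe41 and Arid3a lie farthest to the right and Sox4 and Bhlhe40 farthest to the left.

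Genes that the factors are known to control were counted in lists, to be read against all tested genes, of which 5.49% were called higher and 3.99% lower in Eµ-MTCP1 and 5.07% and 4.13% in Eµ-TCL1. Of 13 genes activated by PAX5, 4 fell in Eµ-MTCP1 and 3 in Eµ-TCL1 (3.99% and 4.13% of all genes) and none rose, with a median log2 fold change of -0.58 and -0.67. Fcer2a, which encodes CD23, went from 293, 361 and 414 CPM in wildtype to between 2.10 and 15.1 CPM in the leukemias (-5.19 and -6.55, adjusted p = 0.000175 and 6.53e-05). Cr2, which encodes CD21, fell by 5.18 and 5.85, and Ciita, the regulator of MHC class II genes, by 1.05 and 1.28 on the log2 scale. Cd55 fell by 1.49 in Eµ-MTCP1. Of 11 genes repressed by PAX5 none rose: in Eµ-MTCP1 edgeR called 0 (2 with an unadjusted p under 0.05, and 1 by DESeq2), and in Eµ-TCL1 Flt3 and Grap2 fell (-3.06 and -1.70). Of 9 tested EBF1 targets Cd40 and Cr2 fell in both leukemias, and of 12 targets of PU.1 and SPI-B Cd40 and P2ry10 fell in both and Fcgr2b rose in Eµ-MTCP1 (1.35, adjusted p = 0.0288).

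Of 13 genes repressed by BCL6, 4 rose in each leukemia (5.49% and 5.07% of all genes), namely Cd80, Cd44, Ccnd2 and Prdm1 itself, and Gpr183 fell in Eµ-TCL1 (-1.38, adjusted p = 0.0131). The median of the list was -0.01 and -0.00, close to that of all genes. Cd80, a ligand of T cell costimulation, rose from 2.35, 2.39 and 2.87 CPM in wildtype to between 21.02 and 23.1 CPM in Eµ-MTCP1 and between 15.8 and 31.5 CPM in Eµ-TCL1 (3.10 and 3.29, adjusted p = 0.000388 and 0.000251). Ccnd2, a D-type cyclin, rose by 1.34 and 1.08 and Cd44 by 1.23 and 1.85 on the log2 scale. Of 9 tested germinal center genes Pdcd1lg2, which encodes PD-L2, rose from 0.991, 1.30 and 2.72 CPM to between 18.3 and 59.8 CPM in the leukemias (3.83 and 4.79), and Gcsam went from 1.81, 2.23 and 2.71 CPM to at most 0.277 CPM, under 3 reads in every leukemia library.

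Of 7 genes repressed by Blimp-1, Bcl6 and Ciita fell in both leukemias and the other 5, Pax5 and Spib among them, did not pass. Of 13 plasma cell genes 2 rose in Eµ-MTCP1 and 1 in Eµ-TCL1 (5.49% and 5.07% of all genes), and the median was 0.87 and 0.47. Creld2, a chaperone of the endoplasmic reticulum, rose from 63.9, 113 and 153 CPM in wildtype to between 459 and 633 CPM in Eµ-MTCP1 and between 256 and 515 CPM in Eµ-TCL1 (2.26 and 1.83, adjusted p = 0.0031 and 0.0086). Mzb1, which assists immunoglobulin assembly, rose in Eµ-MTCP1 (1.66, adjusted p = 0.042). The defining plasma cell genes Xbp1 and Sdc1, named here after their values were seen, did not pass: Xbp1 had 25.4 to 144 CPM in the leukemias and 42.4 to 97.1 CPM in wildtype, and Sdc1, which encodes CD138, had 2.70 to 42.5 CPM in the leukemias and 13.5 ± 6.68 CPM in wildtype (SD, n = 3). Several lists share genes, and Prdm1 and Bcl6 stand both in these lists and among the 10 factors.

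Genes with the pattern most like each called factor over the 9 libraries were found by Pearson's r of log2 CPM, as a description that largely follows the groups. Bcl6 was most like Ccr6 (r = 0.979), Eid1 (0.972) and Cxcr3 (0.967). Ccr6, a chemokine receptor of B cells, had 136 ± 6.31 CPM in wildtype against 4.94 ± 1.55 CPM in Eµ-MTCP1 and, in Eµ-TCL1, 4.08 ± 4.42 CPM (SD, n = 3 each). Bach2 was most like Rasgef1b (0.977), Pde4d (0.974) and Rnf215 (0.971), Ebf1 most like Leprot (0.962), Sox4 (0.954) and Galnt1 (0.949), and Prdm1 most like Pcbp4 (0.989), Hepacam2 (0.981) and Ehd4 (0.969). Hepacam2 had 34.2 ± 6.86 CPM in wildtype, 232 ± 140 CPM in Eµ-MTCP1 and, in Eµ-TCL1, 205 ± 67.6 CPM.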

How the data were processed

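RNA from splenic B cells of 9 mice was measured, and groups follow the GEO labels. The replicate numbers are in accession order and pair no samples. The labels call the samples mice, so p-values measure the spread between animals.

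The authors made the deposited estimated counts and TPM values (reads per transcript length, scaled to one total) with Salmon (version 1.0.0 in the submitters' processing notes, which also name CASAVA 1.8.2, HISAT2 2.0.6, featureCounts and build GRCm38.p4), on a reference of mouse coding sequences with the human transgenes added and on a standard reference of whole transcripts. The authors also deposited whole-number counts per gene, a version of these counts filtered for even coverage by CLEAR, and 2 tables of log2-like values normalized by DESeq2. The sources name SMARTer v4 with Nextera XT in one place and a TruSeq stranded kit in another, and strand use in counting is not given in the sources used here, so whether reads of overlapping antisense genes were kept apart is not known.

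Estimated counts on coding sequence were summed per gene through the transcript names of GENCODE M21 (442 of 57871 transcripts unmatched, at most 0.291% of the reads of a library), rounded to whole numbers, filtered with filterByExpr, scaled by TMM and tested with edgeR 4.0.16 (R 4.3.3), quasi-likelihood F test, all 9 libraries in 1 fit, Benjamini-Hochberg over all 11165 genes, threshold 0.05. Tests were tried on simulated data first. DESeq2 1.42.0 was an alternative, as were other filters, scalings and tables and leaving out each mouse. The 10 genes and all gene lists were chosen with earlier results of these data known. All 10 were named, and from each list at most 4 called genes per comparison, by size of change; Xbp1 and Sdc1 were added later. A count of 0 allows up to 3 reads, or 0.326 to 0.495 CPM, by counting error only.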

Additional observations from a re-analysis of the deposited data

How the results depend on the processing

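Of the results on single genes, 568 kept their direction and their side of the threshold under an alternative, 23 passed only under the alternative, 16 were lost and 23 turned sign. The number of factors called in Eµ-MTCP1 against wildtype was 3, and it was 5 with DESeq2, with library size only and with the CLEAR-filtered table, and 2 to 4 when a mouse was left out. In Eµ-TCL1 against wildtype it was 4, with 6 by DESeq2, 5 on the standard reference, with the gene count table, with the CLEAR-filtered table and with 2 groups only, 2 to 5 when a mouse was left out (2 without C1594 and without Z2755), and 2 without Z2641 and Z2755. Between the leukemias it was 0, and 1 with DESeq2. Over all genes DESeq2 called 1646, 1695 and 73 genes against 1059, 1027 and 5 by edgeR in the comparisons of Eµ-MTCP1 and then Eµ-TCL1 with wildtype and of both leukemias, in that order. With scaling by library size only, the median log2 fold change of all genes against wildtype was -0.26 in Eµ-MTCP1 and -0.15 in Eµ-TCL1 (-0.02 and -0.01 with TMM), and 391 genes were called higher and 730 lower in the former (613 and 446 with TMM) and 446 and 593 in the latter (566 and 461).

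Leaving out a mouse, the ratio differences ranged from -3.66 to -3.15 for Bach2 to Prdm1, from -4.22 to -3.80 for Bcl6 to Prdm1 and from -2.48 to -1.96 for Pax5 to Prdm1. With 2 wildtype mice the first 2 ratios gave the smallest p that the exact permutation then allows (0.0357), which no longer passed after adjustment. Pax5 to Prdm1 lost its call without Z2755 and without Z2754 (exact permutation p = 0.0714), and without Z2785, Z2551 or B4376 (0.0357). Turned signs were all of factors that were not called. Against wildtype, Ikzf1 came to -0.012 in Eµ-MTCP1 with library size only, and in Eµ-TCL1 to -0.087 with length offsets, -0.035 on the standard reference and -0.018 with the CLEAR-filtered table. Spi1 in Eµ-TCL1 came to -0.10 with library size only and ranged from -0.18 to 0.18 when a mouse was left out, and Irf4 in Eµ-MTCP1 from -0.48 to 0.10. Between the leukemias Pax5 came to 0.0055 with library size only, 0.030 on the standard reference, 0.027 with the gene count table and 0.0067 with the CLEAR-filtered table, and Ikzf1 to 0.061 with library size only and 0.066 without Z2641 and Z2755. Leaving out a mouse there gave -0.26 to 0.087 for Pax5, -0.13 to 0.075 for Ikzf1, -0.56 to 0.021 for Irf4, -0.35 to 0.59 for Irf8 and -0.68 to 0.34 for Prdm1. The cause of these changes was not tested. No paired analysis was possible because the labels pair no mice across groups and the replicate numbers used here only follow accession order. Low counts limit Bcl6 in the leukemias (35 to 130 coding reads).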

Other observations

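Among the 6 leukemias the 10 factors were also compared with each other, 45 pairs in all, by exact permutation over all orders of the mice, and no pair passed (lowest adjusted p 0.547). Irf4 and Prdm1 had a Pearson r of 0.88 (exact permutation p = 0.0236), which came to 0.38 without the 2 mice farthest from the median.

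Each leukemia used mainly 1 heavy chain variable segment. Ighv12-3 took 95.8% of the Ighv coding reads in Eµ-MTCP1 mouse Z2606 and 98.1% in Eµ-TCL1 mouse C1594. These mice had the highest Prdm1 level of their groups (123 and 74.1 CPM) and the lowest Irf8 level (119 and 77.2 CPM). The other 4 leukemias were led by Ighv1-55 (98.0%, Z2551), Ighv5-4 (91.4%, Z2641), Ighv1-50 (96.7%, B4376) and Ighv1-15 (84.5%, B4437), and in wildtype the leading segment took 5.83 to 14.8%. In B4437 Ighv12-3 took 9.23%, and this mouse had the lowest Prdm1 level (41.1 CPM) and the highest Irf8 level (339 CPM) of its group. With 2 mice led by Ighv12-3 no test was made.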
